A study of Mus musculus with 14 samples.

Results

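The levels of 42 genes of the cell division cycle were followed in embryonic mouse skin epithelium. Of these, 19 act in S phase, when DNA is copied, or in its preparation and start, and are called S phase genes here. The other 23 act in G2 phase and mitosis (G2/M), when the copies are separated. All 42 were chosen by name from the usual S phase and G2/M marker genes, and all were found among the 26252 genes listed. The tissue was back skin of wild-type embryos of the strain C57BL/6JOlaHsd at embryonic stage E14.5, when hair follicle placodes, local thickenings of the epithelium, have formed. The placode-enriched group (7 libraries) held live cells positive for MAdCAM-1, an adhesion molecule of placode cells, and the interfollicular epithelium or IFE group (7 libraries) held the MAdCAM-1 negative cells. The libraries formed 7 pairs, each with 1 library per group, and each library came from a pool of 3 to 4 embryos of a litter. Both groups were wild type, and the labels name no treatment. The IFE group was defined by the lack of a surface marker and so can hold any other cell of the sheet.

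Division of a cell depends on gene programmes that are switched on in turn. E2F factors, freed from the retinoblastoma protein by cyclin D and cyclin E kinases, activate genes for origin licensing, the replicative helicase, the polymerases and the nucleotide supply. Later the B-Myb and FoxM1 factors activate genes for the mitotic kinases, the spindle and the kinetochore, and the DREAM complex represses both sets in resting cells. In mature skin, the basal epithelium divides while suprabasal cells leave the cycle. Early placode cells are known from labelling studies to divide rarely while the placode takes shape.

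Both programmes are read from short promoter elements, so the promoters of members were searched for 3 of them on both strands. E2F elements were counted as TTTNNCGC with C or G at each N, cell cycle homology regions (CHR, the element bound by DREAM and by B-Myb complexes) as TTTGAA or TTCGAA, and CCAAT boxes as CCAAT. The RefSeq promoter table (GRCm38.p6) covers 250 bases before to 50 bases after each annotated start, and it held 34 of the 42 members (16 S phase and 18 G2/M). The following windows of 160 bases before the RefSeq start are shown, 5′ to 3′ on the gene's strand, as examples of both programmes and, for Aurka and Kif23, of members that rose in placode-enriched cells. Capitals mark every match.
Mcm5 (chr8:75109349-75109508, plus strand): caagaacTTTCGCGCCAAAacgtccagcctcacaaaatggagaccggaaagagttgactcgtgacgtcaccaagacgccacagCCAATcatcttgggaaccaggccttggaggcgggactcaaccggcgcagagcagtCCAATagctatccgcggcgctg
Mcm6 (chr1:128359706-128359865, minus strand): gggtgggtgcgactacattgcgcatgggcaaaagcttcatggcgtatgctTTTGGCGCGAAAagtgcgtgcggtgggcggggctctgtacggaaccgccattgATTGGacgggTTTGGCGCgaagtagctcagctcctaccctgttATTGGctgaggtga
Pola1 (chrX:93632156-93632315, minus strand): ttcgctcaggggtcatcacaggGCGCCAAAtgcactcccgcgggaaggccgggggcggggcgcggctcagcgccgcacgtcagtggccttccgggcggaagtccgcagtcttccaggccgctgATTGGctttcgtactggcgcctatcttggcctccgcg
Cdk1 (chr10:69352913-69353072, minus strand): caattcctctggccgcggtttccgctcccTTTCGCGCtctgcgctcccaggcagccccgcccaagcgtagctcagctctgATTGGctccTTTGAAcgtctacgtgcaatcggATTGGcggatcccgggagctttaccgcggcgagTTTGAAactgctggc
Top2a (chr11:99024190-99024349, minus strand): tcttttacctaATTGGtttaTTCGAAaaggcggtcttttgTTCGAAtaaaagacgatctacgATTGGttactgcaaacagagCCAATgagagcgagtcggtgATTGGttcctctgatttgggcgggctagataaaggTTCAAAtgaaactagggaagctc
Cdc20 (chr4:118437344-118437503, minus strand): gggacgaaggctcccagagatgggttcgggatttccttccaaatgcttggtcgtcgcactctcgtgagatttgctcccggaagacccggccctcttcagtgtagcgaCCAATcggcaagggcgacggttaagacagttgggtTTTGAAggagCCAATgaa
Aurka (chr2:172370571-172370730, minus strand): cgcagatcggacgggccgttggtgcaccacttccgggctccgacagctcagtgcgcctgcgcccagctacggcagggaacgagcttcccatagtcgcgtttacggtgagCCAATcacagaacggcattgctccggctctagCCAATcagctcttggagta
Kif23 (chr9:61946800-61946959, minus strand): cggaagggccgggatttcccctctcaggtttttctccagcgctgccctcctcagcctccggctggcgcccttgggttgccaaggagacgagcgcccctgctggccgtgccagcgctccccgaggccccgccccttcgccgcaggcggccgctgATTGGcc
The Mcm5 and Mcm6 windows, upstream of helicase subunit genes, each held overlapping E2F matches on opposite strands, and Pola1, the catalytic subunit of DNA polymerase alpha, held 1. Cdk1, the kinase that drives mitotic entry, was the only G2/M member in the table with an E2F match, and it also held a CHR that began 15 bases before the start. In Cdc20 and Top2a a CHR began 18 and 23 bases before the start. In Aurka and Kif23 the CHR lay after the start, outside the bases shown.

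E2F matches stood in 7 of 16 S phase promoters (43.8%) and in 1 of 18 G2/M promoters (5.56%), against 2.26% of all 32851 promoters of that length and 3.92% of the 13526 promoters of genes tested here. CHR matches stood in 14 of 18 G2/M promoters (77.8%) and in 2 of 16 S phase promoters (12.5%), against 19.2% of all promoters and 13.8% of those of genes tested. In 12 of these 14 G2/M promoters a CHR began no more than 30 bases before the start or after it. CCAAT boxes were frequent in both sets, in 15 of 18 G2/M promoters (83.3%) and 12 of 16 S phase promoters (75%), against 37.4% of all promoters and of those of genes tested. A CHR together with a CCAAT box stood in 13 of 18 G2/M promoters (72.2%) and 2 of 16 S phase promoters (12.5%), against 7.52% of all promoters. These are matches of letters, not measured binding, and the shares of E2F and CHR matches depend on the window, as given with the limits.

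All 42 members passed the filter on low counts, and the lowest value of any member in any library was 23.8 CPM (counts per mega count of the TMM-scaled library total). Per kilobase of annotated exon, so that genes can be set beside each other, the marker of cycling cells Mki67 had the highest mean level, 220 in placode-enriched and 208 in IFE libraries (RPKM, CPM per kilobase). Ube2c, the ubiquitin-conjugating enzyme of the anaphase-promoting complex, came next with 140 RPKM in placode-enriched and 110 RPKM in IFE libraries. Cdc20, an activator of that complex, had 93.8 RPKM in placode-enriched and 81.9 RPKM in IFE libraries. Among S phase members the sliding clamp of the polymerases, Pcna, was highest with 88.1 RPKM in placode-enriched and 93.5 RPKM in IFE libraries. The replication initiation factor Mcm10 was lowest with 6.62 RPKM in placode-enriched and 6.17 RPKM in IFE libraries. Transcripts of both programmes were thus present in every library of both groups. In RNA from many cells, fewer cycling cells and less RNA per cycling cell cannot be told apart.

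Libraries held 23.8 to 49.5 mega counts, and 15382 genes were tested. At an adjusted p under 0.05 (edgeR's quasi-likelihood test blocked on pair, Benjamini-Hochberg over all genes tested), 31.1% of genes tested differed between groups, 15.5% higher and 15.6% lower in placode-enriched libraries, with a median log2 fold change of -0.02. Of the 42 members, 10 passed (23.8%), which is below that background share. The S phase list had 4 of 19 lower (21.1%, beside 15.6% of all genes) and the G2/M list had 6 of 23 higher (26.1%, beside 15.5% of all genes). The groups' values did not overlap for 14.8% of all genes tested and for 3 members, Ccne2, Prim1 and Kif2c. The largest change of any member was that of Ccne2, whose level in placode-enriched libraries was 0.68 of that in IFE libraries. Markers of suprabasal cells moved with the groups: their sum was 222 to 483 CPM in placode-enriched libraries and 2902 to 4544 CPM in IFE libraries. Whether these cells had left the cycle at this stage was not tested. Their part in the changes of S phase and G2/M genes was not tested.

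**Figure D1:**
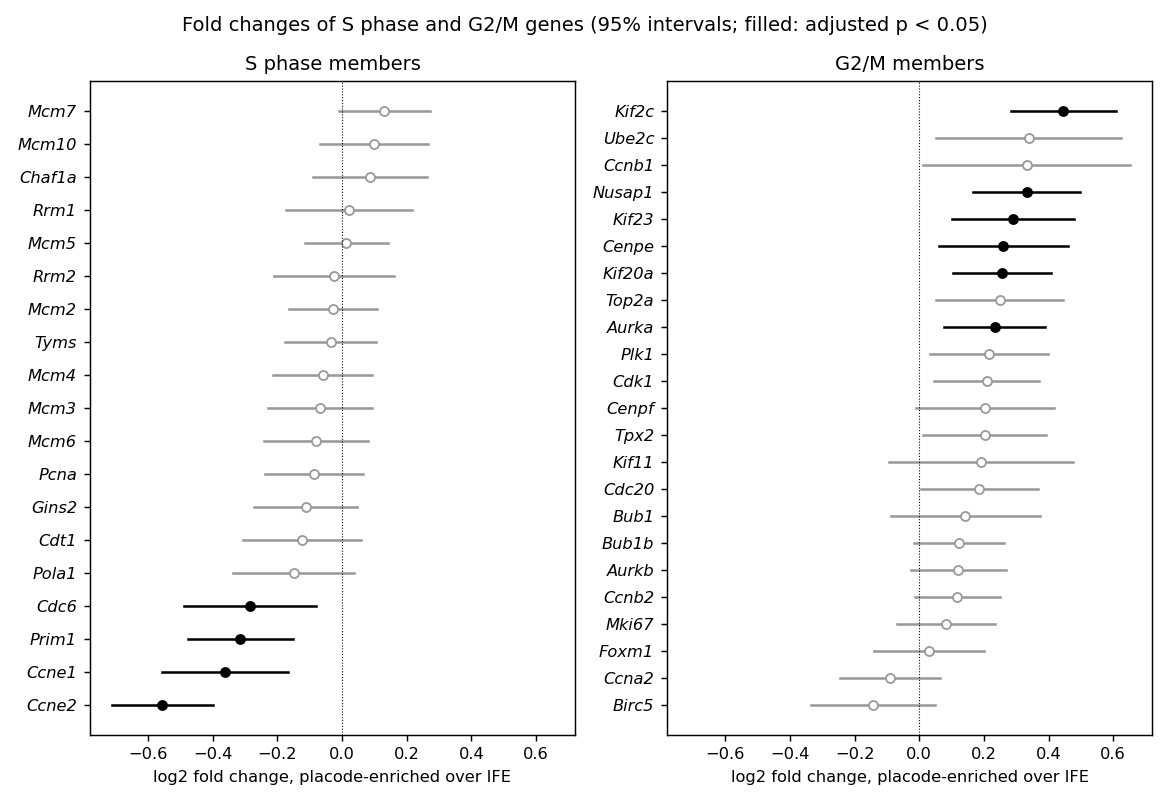
Fold changes of all 42 genes, as log2 of placode-enriched over IFE with 95% intervals, for S phase genes on the left and G2/M genes on the right; filled points passed an adjusted p under 0.05. The 4 S phase genes that passed lie at the low end, from -0.28 to -0.56, and the 6 G2/M genes that passed lie between 0.23 and 0.45.

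The S phase genes that fell in placode-enriched cells were the 2 E-type cyclins, the primase gene Prim1 and the licensing factor Cdc6. The other 15 S phase members did not pass, and none rose. The median log2 fold change of the list was -0.07 (14 of 19 negative, beside 8057 of all 15382 genes tested). This median was -0.03 without pair 4 and -0.03 with scaling by library size only, where 12 of 19 were negative. At an unadjusted p under 0.05 the count was 4 lower and 0 higher, and the share of all genes there was not counted. Counted with DESeq2 and with limma-voom it was likewise 4 lower and 0 higher after adjustment.

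Ccne2 (chr4:11191351-11204779, plus strand, GRCm38) encodes cyclin E2, which activates Cdk2 at the passage into S phase. Its lowest, median and highest values were 34.9, 40.8 and 50.004 CPM in placode-enriched libraries, against 52.1, 60.2 and 73.9 CPM in IFE libraries. Each placode-enriched library lay below each IFE library. The means were 40.6 ± 5.03 CPM (SD, n = 7) in placode-enriched libraries and 59.7 ± 7.34 CPM (SD, n = 7) in IFE libraries, and the log2 fold change was -0.56 ± 0.07 (standard error, adjusted p = 5.46e-05 in edgeR). It passed in all 18 alternatives run, but its exons overlap those of Ints8 on the other strand, and the strand setting of the counting is not given in the sources used here. Ints8 had a log2 fold change of 0.14 (adjusted p = 0.153 in edgeR), opposite in sign.

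Ccne1 (chr7:38097984-38107534, minus strand), the gene of cyclin E1, had 23.8, 29.7 and 35.7 CPM as its lowest, median and highest values in placode-enriched libraries, against 33.8, 36.9 and 42.1 CPM in IFE libraries. It was lower in placode-enriched cells in 7 of 7 pairs, although the groups overlapped. Its log2 fold change was -0.36 ± 0.09 (edgeR adjusted p = 0.00787), and -0.23 (adjusted p = 0.189) in pairs 1 to 4 alone.

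Prim1 (chr10:128015168-128030037, plus strand) encodes the catalytic subunit of primase, which lays down the RNA primers of replication. It had 64.5, 70.2 and 82.0 CPM in placode-enriched libraries, against 84.1, 88.6 and 105 CPM in IFE libraries, again as lowest, median and highest value. The groups did not overlap, but the gap between them was narrow. The log2 fold change was -0.31 ± 0.07 (edgeR adjusted p = 0.00588).

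Cdc6 (chr11:98907801-98923940, plus strand), whose product loads the Mcm helicase onto origins, ranged over 39.3, 45.1 and 48.8 CPM in placode-enriched libraries, against 42.9, 54.1 and 64.9 CPM in IFE libraries. It was lower in 6 of 7 pairs and higher in pair 5. The log2 fold change of -0.28 ± 0.09 (edgeR adjusted p = 0.0351) lost its call without pair 1 (adjusted p = 0.103), pair 2 (0.111), pair 3 (0.0658), pair 4 (0.0921) or pair 7 (0.107).

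The 6 subunits of the replicative helicase, Mcm2 to Mcm7, did not pass. Mcm2 had 158, 164 and 169 CPM in placode-enriched libraries, against 155, 165 and 193 CPM in IFE libraries, with a log2 fold change of -0.03 (95% interval -0.17 to 0.11, edgeR adjusted p = 0.787). Its values overlapped throughout. Mcm7 lay highest of the list, at 0.13 (-0.01 to 0.27, adjusted p = 0.15) and higher in 6 of 7 pairs, but its exons overlap Ap4m1 and Cops6 on the other strand and the microRNA genes Mir25 and Mir93 on its own.

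Pcna had 173, 220 and 230 CPM in placode-enriched libraries, against 195, 227 and 244 CPM in IFE libraries. Its log2 fold change was -0.09 (95% interval -0.24 to 0.06, edgeR adjusted p = 0.399), and it has 2 named pseudogenes that may share its reads. The nucleotide enzymes Rrm1 and Rrm2, the subunits of ribonucleotide reductase, had log2 fold changes of 0.02 and -0.03. Thymidylate synthase, Tyms, was at -0.04. Of the remaining members, Mcm10 (0.10), Chaf1a (0.09), which places histones on new DNA, Gins2 (-0.11), the licensing factor Cdt1 (-0.12) and Pola1 (-0.15) did not pass, with adjusted p between 0.226 and 0.48. All these intervals include 0, and the intervals of the 15 S phase members that did not pass reached at most -0.34 and 0.27.

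The G2/M genes that rose in placode-enriched cells were 4 kinesin motors, the spindle protein gene Nusap1 and the kinase gene Aurka. The median log2 fold change of the list was 0.20, and 21 of 23 members were positive, beside 47.6% of all genes tested. At an unadjusted p under 0.05, 13 members were higher and 0 were lower, but the share of all genes at that threshold was not counted. No member was lower after adjustment with edgeR, DESeq2 or limma-voom. The count of 6 depended on single pairs: it was 3 without pair 4 and 12 without pair 5, and it was 10 with DESeq2. With pairs 5 to 7 alone, whose title codes share their first numbers, 0 members passed higher (1 higher and 1 lower at an unadjusted p under 0.05), and with pairs 1 to 4 alone 9 passed. The list's median was 0.09 in pairs 5 to 7 and 0.28 in pairs 1 to 4; the difference between these sets of pairs was not tested, and the labels do not say what the shared numbers stand for.

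Kif2c (chr4:117159639-117182639, minus strand) encodes a kinesin that shortens microtubules and frees wrongly attached chromosomes. It had 64.0, 78.0 and 91.0 CPM as lowest, median and highest values in placode-enriched libraries, against 48.7, 55.2 and 63.2 CPM in IFE libraries. Each placode-enriched library lay above each IFE library. The means of 75.7 ± 9.54 CPM (SD, n = 7) in placode-enriched libraries and 55.4 ± 5.07 CPM (SD, n = 7) in IFE libraries gave a log2 fold change of 0.45 ± 0.07 (adjusted p = 0.000466 in edgeR).

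Nusap1 (chr2:119618298-119651244, plus strand), whose product bundles spindle microtubules, had 136, 178 and 204 CPM in placode-enriched libraries, against 124, 143 and 157 CPM in IFE libraries. It was higher in 7 of 7 pairs, with overlapping groups. Its log2 fold change was 0.33 ± 0.08 (edgeR adjusted p = 0.00467). Exons of Oip5 overlap it on the other strand, and Oip5 averaged 13.4 CPM in placode-enriched libraries and 13.3 CPM in IFE libraries.

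Kif23 and Kif20a encode motors that bundle the central spindle and are needed for cytokinesis. Kif23 (chr9:61915905-61946774, minus strand) had 90.9, 113 and 130 CPM in placode-enriched libraries, against 80.5, 92.6 and 104 CPM in IFE libraries, with a log2 fold change of 0.29 ± 0.09 (adjusted p = 0.0213 in edgeR). It was higher in 6 of 7 pairs, and without pair 4 the adjusted p was 0.059. Kif20a (chr18:34624613-34633277, plus strand) had 172, 209 and 214 CPM in placode-enriched libraries, against 157, 163 and 199.8 CPM in IFE libraries, with a log2 fold change of 0.26 ± 0.07 (adjusted p = 0.0141 in edgeR). It was higher in 7 of 7 pairs, by a difference that rounds to 0.00 in pair 5, and its exons overlap Cdc23, which did not pass (-0.04).

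Cenpe (chr3:135212537-135273611, plus strand), the kinetochore motor that moves chromosomes to the spindle equator, had 224, 315 and 354 CPM in placode-enriched libraries, against 220, 269 and 299 CPM in IFE libraries. Its log2 fold change of 0.26 ± 0.09 had an edgeR adjusted p of 0.0479, the weakest of the members that passed. It was lower in pair 5 alone, and it lost its call when pair 1 (adjusted p = 0.118), pair 2 (0.0797), pair 3 (0.0862), pair 4 (0.117), pair 6 (0.0714) or pair 7 (0.0826) was left out. Aurka (chr2:172356190-172370535, minus strand), the kinase that matures centrosomes, had 79.4, 86.7 and 94.6 CPM in placode-enriched libraries, against 62.7, 74.6 and 82.5 CPM in IFE libraries. It was higher in 7 of 7 pairs, with a log2 fold change of 0.23 ± 0.07 (adjusted p = 0.025 in edgeR), and did not pass without pair 2 (0.0636) or pair 4 (0.0817).

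**Figure D2:**
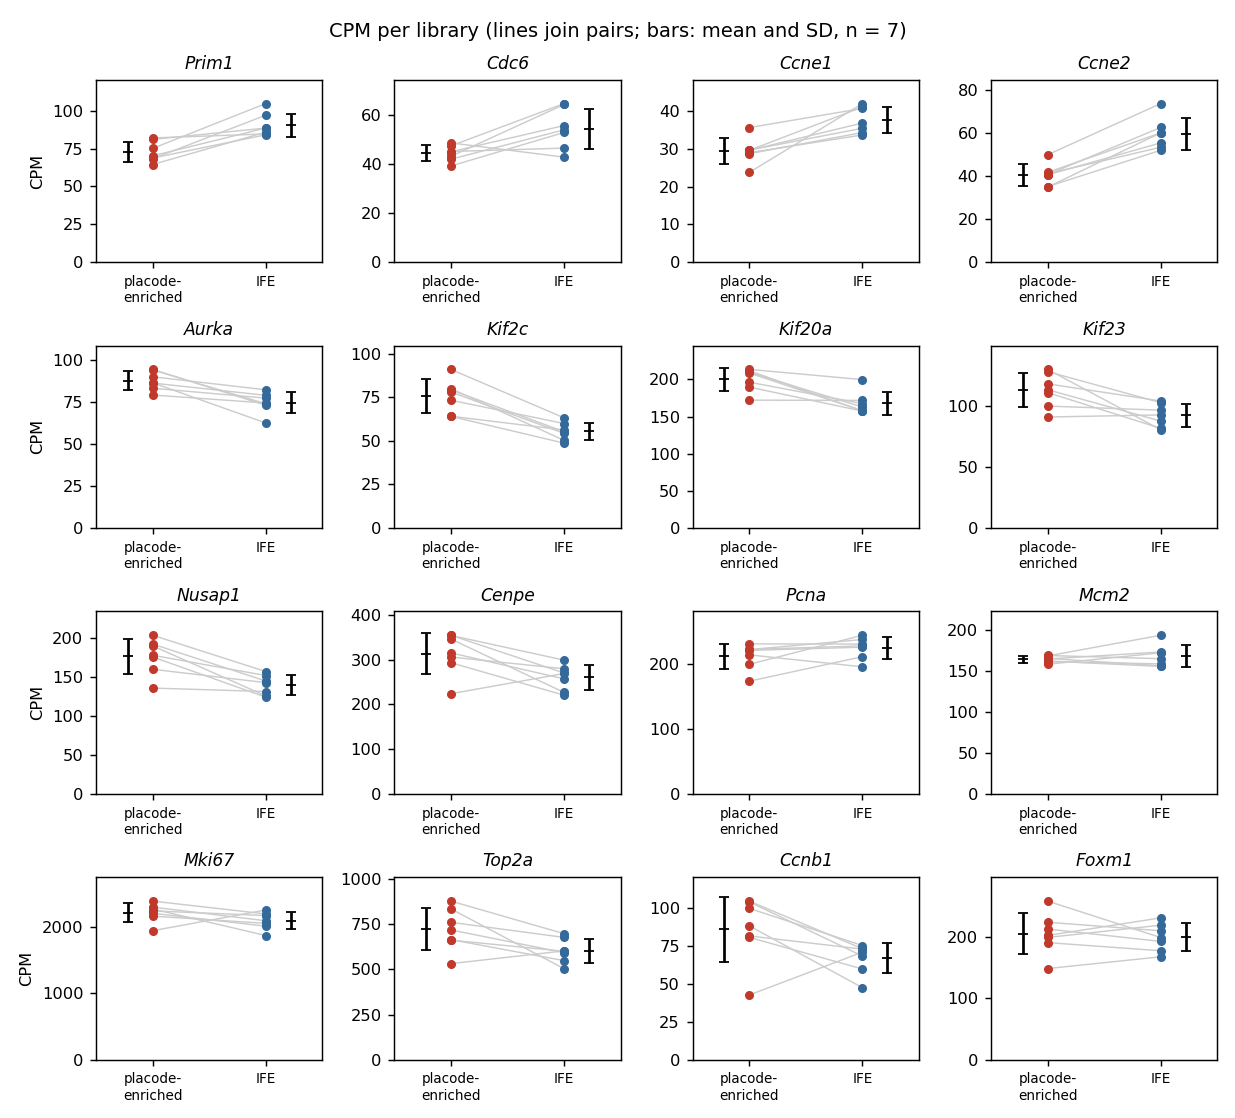
CPM per library for the 10 genes that passed and for Pcna, Mcm2, Mki67, Top2a, Ccnb1 and Foxm1, with placode-enriched libraries on the left, IFE libraries on the right, lines joining pairs and bars for the mean and SD (n = 7 each). Ccne2 separates the groups, at 34.9 to 50.004 CPM in placode-enriched libraries and 52.1 to 73.9 CPM in IFE libraries, and Ccnb1 has 1 placode-enriched library at 42.6 CPM below the others.

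The most used proliferation marker, Mki67, did not pass. It had 1943, 2242 and 2390 CPM in placode-enriched libraries, against 1871, 2093 and 2256 CPM in IFE libraries, with a log2 fold change of 0.08 (95% interval -0.07 to 0.23, edgeR adjusted p = 0.431). The sign was positive in 6 of 7 pairs. Top2a, which untangles sister chromatids, had 532, 718 and 878 CPM in placode-enriched libraries, against 503, 600 and 697 CPM in IFE libraries. Its log2 fold change of 0.25 (0.05 to 0.45) had an adjusted p of 0.0538, just above the threshold, and it passed in 8 of 18 alternatives.

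None of the cyclins and kinases of mitotic entry on the list, other than Aurka, passed the test. Ccnb1, cyclin B1, had 42.6, 88.2 and 105 CPM in placode-enriched libraries, against 47.4, 70.9 and 75.2 CPM in IFE libraries, with a log2 fold change of 0.33 (95% interval 0.01 to 0.65, edgeR adjusted p = 0.112). Pair 5 ran against the other 6, and without it the value was 0.50 (adjusted p = 0.000539). Without pair 3 it was 0.24 (edgeR adjusted p = 0.23). Ccnb2, cyclin B2, was higher in 7 of 7 pairs but by 0.12 only (adjusted p = 0.171). Both have a named pseudogene that may share their reads. Ccna2, cyclin A2, lay at -0.09 (adjusted p = 0.397). Cdk1 had a log2 fold change of 0.21 (adjusted p = 0.0508) and passed in 6 of 18 alternatives, among them without pair 5 (adjusted p = 0.00712). Its edgeR adjusted p was 0.127 without pair 4. Plk1, a kinase of mitotic entry and exit, was at 0.22 (adjusted p = 0.0723) and passed without pair 3 (0.0208) or pair 7 (0.0398). For Plk1 without pair 4 the edgeR adjusted p was 0.203.

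Foxm1, the transcription factor of the programme, showed no detectable difference: 148, 202 and 258 CPM in placode-enriched libraries, against 168, 199 and 231 CPM in IFE libraries, at 0.03 (95% interval -0.14 to 0.20, edgeR adjusted p = 0.82). The genes of the anaphase-promoting complex, Ube2c and Cdc20, were at 0.34 (adjusted p = 0.0701) and 0.19 (adjusted p = 0.114). Without pair 3, both passed, Ube2c at 0.42 (0.0248) and Cdc20 at 0.24 (0.026), and Ube2c passed without pair 7 too (0.0193). Leaving out pair 4 instead gave Ube2c 0.25 (edgeR adjusted p = 0.198) and Cdc20 0.16 (0.243). Exons of Cdc20 overlap those of Elovl1, which fell by 1.56 on the log2 scale (adjusted p = 2.54e-08). Birc5, or survivin, of the chromosomal passenger complex, was at -0.14 (adjusted p = 0.26), and its partner kinase Aurkb was at 0.12. The checkpoint genes Bub1 and Bub1b were at 0.14 and 0.12, the spindle assembly factor Tpx2 and the kinetochore gene Cenpf were both at 0.20, and the bipolar spindle motor Kif11 was at 0.19. Without pair 5, Tpx2 (0.26, adjusted p = 0.0192), Cenpf (0.30, 0.00874) and Kif11 (0.31, 0.037) passed. Leaving out pair 3 instead lowered Tpx2 (0.13, edgeR adjusted p = 0.189), Cenpf (0.13, 0.282) and Kif11 (0.07, 0.677).

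Within pairs, the G2/M members were mostly higher in placode-enriched cells in every pair but 1. The number of G2/M members higher was 21, 21, 19, 22, 10, 20 and 17 of 23 in pairs 1 to 7. For S phase members it was 8, 5, 9, 2, 9, 8 and 8 of 19. Median differences in log2 CPM of the G2/M list were 0.24, 0.17, 0.33, 0.35, -0.06, 0.14 and 0.19, and those of the S phase list lay between -0.19 and -0.01. By gene, 17 of 23 G2/M members were higher in at least 6 pairs, against 1 of 19 S phase members. Lower in at least 6 pairs were 6 of 19 S phase members. The shares of all genes that met these rules were not counted. Over all genes the pairs' medians lay between -0.03 and 0.02.

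**Figure D3:**
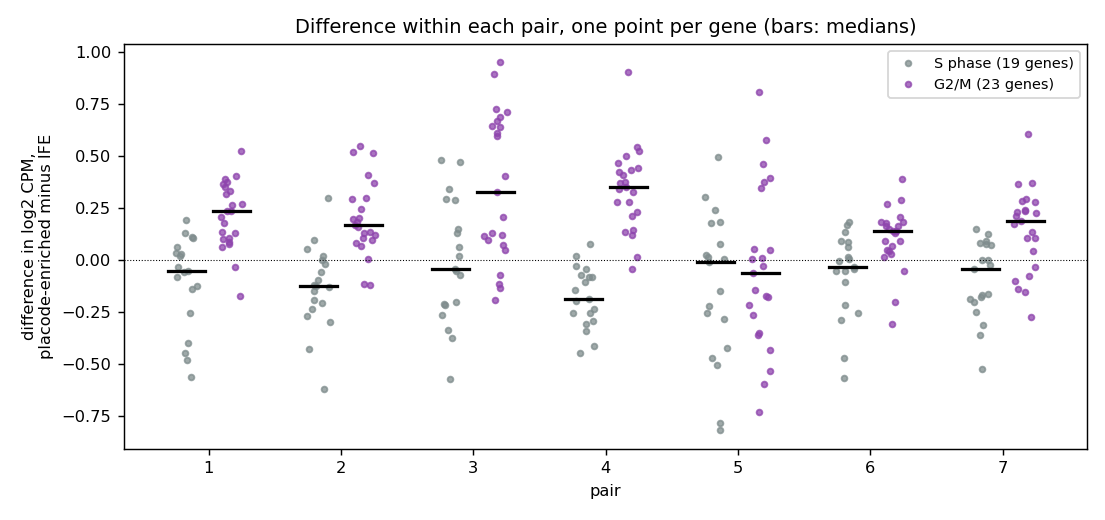
Difference in log2 CPM, placode-enriched minus IFE, within each of 7 pairs, with a point per gene and a bar at the median of each list (19 S phase and 23 G2/M genes). The G2/M median is above 0 in 6 pairs and at -0.06 in pair 5, where the G2/M genes spread between -0.73 and 0.81.

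Pair 5 split the G2/M list. There Ccnb1 (-0.73), Birc5 (-0.60), Kif11 (-0.54), Bub1 (-0.43) and Cenpf (-0.36) were lower in the placode-enriched library, while Ube2c (0.81), Cdc20 (0.58), Plk1 (0.46), Kif2c (0.40) and Foxm1 (0.38) were higher. In pair 3 several of these lay on the other side: Kif11 was at 0.95, Ccnb1 at 0.89, Bub1 at 0.71 and Cenpf at 0.64, while Foxm1 was at -0.19, Cdc20 at -0.13, Ube2c at -0.11 and Plk1 at -0.07. Kif2c was high in both, at 0.67 in pair 3. S phase members spread in pair 5 as well, with Ccne1 at -0.82, Ccne2 at -0.79 and Chaf1a at 0.50. These 2 pairs were singled out after their values were seen. Annotated exon lengths of the G2/M genes named as lower in pair 5 were 4217, 3402, 7461, 4354 and 15433 bases, in that order. Those named as higher had 2600, 1868, 2199, 4363 and 5754 bases. The TMM factors of placode-enriched library 5 (0.940) and IFE library 3 (0.939) were the lowest. Pair 3 held 49.5 mega counts in the placode-enriched and 31.8 in the IFE library. The part of exon length, scaling and depth in the split was not tested.

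Summed over members, the S phase genes made up 2246 to 2729 CPM in placode-enriched libraries and 2401 to 2792 CPM in IFE libraries, and the G2/M genes 5897 to 7122 CPM in placode-enriched libraries and 5397 to 6273 CPM in IFE libraries. Mki67 alone was 33.9% of the G2/M sum. The mean log2 ratio within pairs was -0.05 ± 0.07 for the S phase sum and 0.16 ± 0.13 for the G2/M sum (SD, n = 7 pairs), positive in 1 and in 6 of 7 pairs. In pair 5 the G2/M ratio was -0.07 on this scale and 0.08 when each gene was divided by its exon length, so its direction there depends on the scale. The G2/M sum divided by the S phase sum was 2.60 to 2.84 in placode-enriched libraries (mean 2.70 ± 0.101) and 2.02 to 2.58 in IFE libraries (mean 2.33 ± 0.197). It was higher in the placode-enriched library of every pair, and the groups did not overlap, though they nearly touched. Per exon length the ratio was 2.03 to 2.30 in placode-enriched and 1.58 to 1.99 in IFE libraries. As the genes were chosen with results of these data known, the sums and ratios carry no test.

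**Figure D4:**
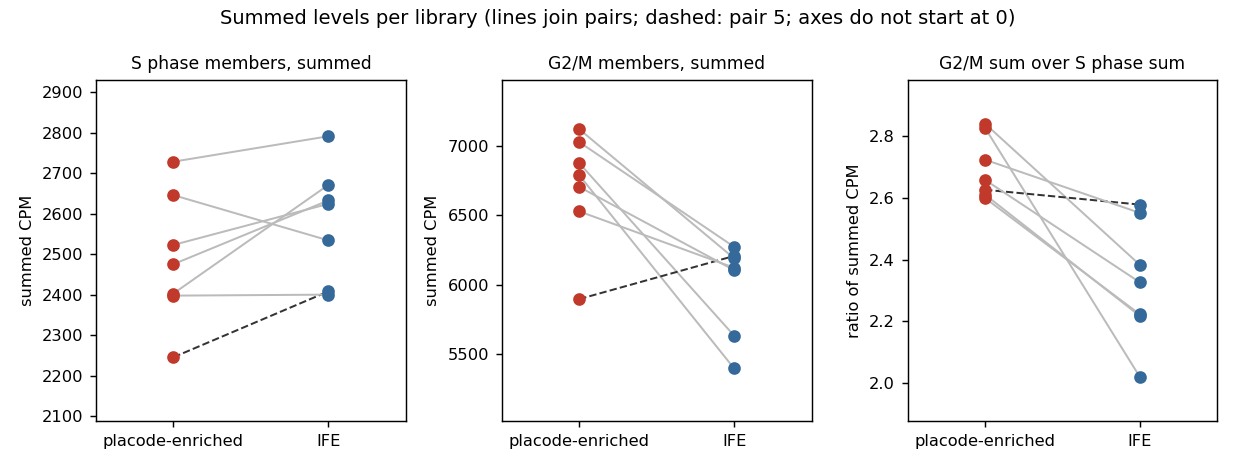
Summed CPM of S phase genes, summed CPM of G2/M genes and the ratio of both sums in each library, placode-enriched on the left and IFE on the right, with lines joining pairs, pair 5 dashed and axes that do not start at 0. The ratio is 2.60 to 2.84 in placode-enriched and 2.02 to 2.58 in IFE libraries.

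Replicate spread was a little wider for the G2/M genes. Their coefficient of variation over libraries had a median of 12.6% in placode-enriched and 10.3% in IFE libraries, and that of the S phase genes was 10.03% in placode-enriched and 9.21% in IFE libraries. Mcm2 varied least, by 2.34% in placode-enriched libraries, and Ccnb1 most, by 25.1%. Promoter elements were counted among members that passed and members that did not, with no test, as the numbers are small. A CHR stood in 3 of the 5 G2/M members that rose and had a promoter entry (Aurka, Kif23 and Kif2c) and in 11 of 13 that did not pass. In the 100 bases before the start the CHR counts were 0 of 5 and 6 of 13. In that window 6.13% of all promoters and 3.69% of those of genes tested held a CHR. The CHR of Aurka and Kif23 began after the start and that of Kif2c 103 bases before it, so this window left them out. An E2F match stood in 1 of 3 S phase members that fell (Cdc6) and in 6 of 13 that did not pass. A CCAAT box stood in 3 of 5 G2/M members that rose and in 12 of 13 that did not pass, and in 1 of 3 S phase members that fell and in 11 of 13 that did not pass. The windows of Kif2c, Mcm7, Cdc6 and Pcna follow RefSeq starts that lie 3867, 539, 350 and 134 bases from the GENCODE gene start. For each member only the first window listed was used.

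A further 10 lists of cell cycle genes, none of them members, were read beside the 42 genes. Spindle and cytokinesis genes had 11 of 32 higher (34.4%, beside 15.5% of all genes) and none lower, with a median log2 fold change of 0.20. At an unadjusted p under 0.05, 15 passed in either direction, where the share of all genes was not counted. Without pair 4 the number higher was 7, and without pair 3 there was 1 lower. Stmn1, a regulator of microtubule length, had 115, 121 and 147 CPM in placode-enriched libraries, against 76.8, 84.8 and 88.7 CPM in IFE libraries (log2 fold change 0.60 ± 0.07, edgeR adjusted p = 1.2e-05). Gtse1, a mitotic microtubule protein gene, was at 0.57 (adjusted p = 0.00042), and the spindle pole genes Tacc3 and Spag5 were at 0.33 each (adjusted p = 0.00133 and 0.00214). The groups did not overlap for Stmn1 and Gtse1.

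Mitotic entry and exit genes had 5 of 27 higher (18.5%, near the 15.5% of all genes, median 0.05). Cdc25b, a phosphatase that activates Cdk1, had 29.1, 36.6 and 42.9 CPM in placode-enriched libraries, against 17.7, 20.5 and 24.4 CPM in IFE libraries (0.77 ± 0.09, edgeR adjusted p = 3.29e-05). Wee1, the kinase that opposes it, was also higher (0.53), as were Cdc25c (0.46) and Ccnf (0.32). Kinetochore and checkpoint genes had 5 of 32 higher (15.6%, near the 15.5% of all genes, median 0.03, and 3 without pair 4), among them Ska2 (0.45), the centromeric histone Cenpa (0.41), Bub3 (0.28) and Incenp (0.26). Condensin and chromosome genes had 2 of 12 higher (16.7%, near the 15.5% of all genes), Ncapd2 (0.39) and Ncaph (0.28), with a median of -0.02.

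On the replication side, 1 of 42 other origin and fork genes passed (2.38%, beside 31.1% of all genes), the S phase kinase gene Cdc7 at 0.34 (edgeR adjusted p = 0.0067), and the median was 0.00. Without pair 3, 3 of these genes were lower, and without pair 5, 1 was. Nucleotide supply genes had 2 of 12 lower (16.7%, near the 15.6% of all genes), Tk1 (-0.25) and Gart (-0.24), but 0 without pair 4 and 1 without pair 7. Chromatin replication genes had the histone chaperone Nasp higher (0.28) and Chaf1b (-0.19) and Dnmt1 (-0.18) lower of 9 (33.3% called, near the 31.1% of all genes), where the count lower was 0 when pair 1, 2, 4, 6 or 7 was left out. Of 57 replication-dependent histone genes tested, 1 passed (1.75%, beside 31.1% of all genes), Hist3h2ba (0.62), and the median was -0.10; without pair 5, 13 were lower. Near-identical histone copies may share reads, so these values are uncertain. Most histone transcripts also lack a poly(A) tail. The libraries were made of total RNA, and how far they relied on such tails was not examined.

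Of the regulators on the E2F and DREAM list, 1 of 19 was higher (5.26%, beside 15.5% of all genes) and 3 were lower (15.8%, beside 15.6%), with a median log2 fold change of -0.04. E2f8, one of the lower genes, fell to 82.1, 115 and 127 CPM in placode-enriched libraries, against 127, 153 and 171 CPM in IFE libraries as lowest, median and highest values (-0.47 ± 0.08, edgeR adjusted p = 0.000601). E2f2 (-0.61) and the retinoblastoma gene Rb1 (-0.51) were lower too, and the E2F partner Tfdp2 was higher (0.75). E2F8 is a repressor and E2F2 an activator of the E2F family.

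Among other cyclins, Cdks and inhibitors, 10 of 12 tested passed (83.3%, beside 31.1% of all genes), 4 higher (33.3%, beside 15.5%) and 6 lower (50%, beside 15.6%). The Cdk inhibitor gene Cdkn1a, or p21, had 4.88, 7.503 and 9.98 CPM in placode-enriched libraries, against 29.4, 34.2 and 52.0 CPM in IFE libraries (-2.36 ± 0.11, edgeR adjusted p = 4.65e-09). Cdkn1c, or p57, was lower (-0.54) and Cdkn1b, or p27, higher (0.25). D-type cyclins diverged: Ccnd2 (0.55) and Ccnd1 (0.33) rose and Ccnd3 (-0.46) fell, and of their kinases Cdk4 (0.25) rose and Cdk6 (-0.34) fell.

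**Figure D5:**
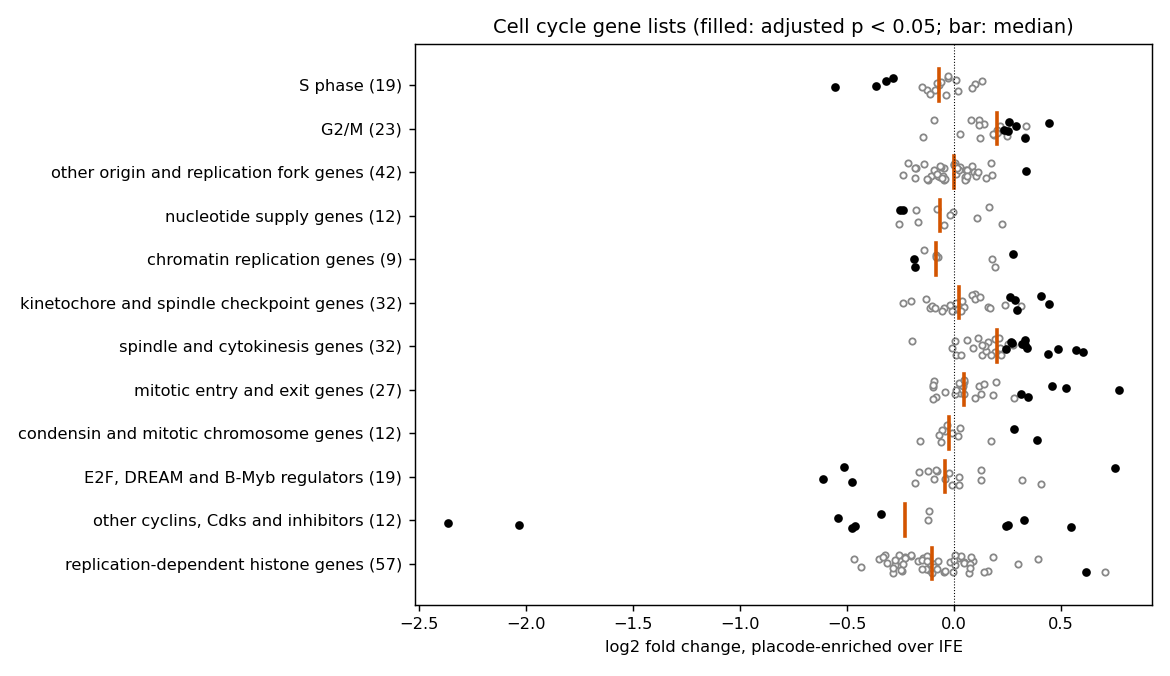
Log2 fold changes of placode-enriched over IFE for every tested gene of the 12 cell cycle lists, with the number tested in brackets, filled points for an adjusted p under 0.05 and a bar at each median. The G2/M list and the spindle and cytokinesis list share a median of 0.20, and Cdkn1a is the lowest point at -2.36.

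Cell type markers moved with the groups far more than the members did. Of the suprabasal markers, 9 of 10 in the table were lower in placode-enriched libraries. Placode markers summed to 1607 to 2200 CPM in placode-enriched libraries and 253 to 332 CPM in IFE libraries, with 9 of 9 higher. Epithelial markers summed to 5007 to 6422 CPM in placode-enriched libraries and 5872 to 7306 CPM in IFE libraries. Of these 6 markers, 3 were higher (Epcam, Krt14 and Trp63) and 3 lower (Cdh1, Krt5 and Krt15). Melanoblast markers summed to 8.31 to 14.6 CPM in placode-enriched libraries and 124 to 222 CPM in IFE libraries, with 8 of 8 tested lower. Periderm markers summed to 24.4 to 43.7 CPM in placode-enriched libraries and 95.1 to 114 CPM in IFE libraries, with 5 of 7 tested lower and 2 higher, Krt8 and Krt18. Fibroblast markers summed to 365 to 592 CPM in placode-enriched libraries and 248 to 338 CPM in IFE libraries, with 2 of 6 tested higher and 1 lower. Nearly all of this sum was Dcn, at 498 CPM in placode-enriched libraries and 258 CPM in IFE libraries on average, while Col1a1 was lower (-2.49, adjusted p = 0.0395 in edgeR) and the defining markers Pdgfra and Twist2 averaged under 1 CPM. Immune markers summed to at most 1.57 CPM in placode-enriched libraries and 1.23 CPM in IFE libraries. Mitochondrial genes, a sign of RNA quality, took 6.57% ± 1.01 of counts in placode-enriched and 6.56% ± 0.777 in IFE libraries (SD, n = 7 each). The part of melanoblasts, periderm and other cells in the changes of S phase and G2/M genes was not tested either.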

How the data were processed

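The authors deposited raw read counts per Ensembl gene for 14 libraries, whole numbers that were not normalized. Per the labels' protocols, epithelial sheets were freed with Dispase II, stained for MAdCAM-1 and sorted, and libraries of the total RNA were made by the Ovation SoLo system. Per the submitters' processing notes, the tools were STAR (given there as 1.5), HTSeq, Trimmomatic, FastQC, MultiQC and bcl2fastq (2.17.1.14), and the builds named were mm10 and GRCm38. How strand, duplicates and annotation were handled is not given in the sources used here, so 10 members whose exons overlap a gene on the other strand are uncertain, as are 3 with overlaps on their own strand and 4 with named pseudogenes.

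Symbols, exon lengths and coordinates came from GENCODE M21 (GRCm38), in which 25949 of 26252 gene identifiers matched; the others held 0.436% of counts. In edgeR 4.0.16 (R 4.3.3, limma 3.58.1), filterByExpr removed 10870 genes and kept 15382; after TMM scaling (trimmed mean of M values), robust quasi-likelihood F tests compared placode-enriched with IFE libraries in a design blocked on pair. The Benjamini-Hochberg method adjusted p-values over all genes tested at 0.05. Log2 fold changes used a prior count of 0.125, standard errors are the unshrunk coefficient over the square root of F, intervals are at 95%, and a prior count of 2 was added for differences per pair. The common biological coefficient of variation was 0.216. Python 3.11.15 with pandas 2.3.3, numpy 2.4.6 and matplotlib 3.10.9 made tables and figures, and the test was checked on simulated data.

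The pairs come from the design text and shared title codes, and a library pools littermates. Deviations from the group means correlated by 0.0548 on average within pairs (-0.132 to 0.195 across genes, over 0.1 in 2 pairs). Whether pools were separate in other respects is not stated, and p-values then measure only the spread between the libraries. Members and lists were chosen with earlier results of these data known. Values in every library are summarised for members past the threshold and for Pcna, Mcm2, Mki67, Top2a, Ccnb1 and Foxm1, and of each further list up to 4 members past the threshold in each direction, those with the smallest p, were to be named. Some of the genes that overlap a member are named besides. Alternatives comprised leaving out the pair block, scaling by upper quartiles, by DESeq2 size factors or by library size alone, no filter, at least 1 CPM in 7 libraries, DESeq2 1.42.0, limma-voom, each pair left out, both sets of pairs alone and a threshold of 0.01. Library totals of 23.8 to 49.5 mega counts limit the precision of counting. Other effects of depth were not tested.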

Additional observations from a re-analysis of the deposited data

Results flagged for a closer look

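Of 90 sets of 7 values examined (each member and each summed level in each group), 4 held a library far from the other 6 by Dixon's criterion, and chance flags about 1 in 20 sets. Ccnb1 had 42.6 CPM in placode-enriched library 5, where the others had 80.6 to 105 CPM. Tyms had 94.8 CPM in the same library, where the others had 115 to 127 CPM. Mcm5 had 211 CPM in placode-enriched library 1, where the others had 178 to 192 CPM. Kif20a had 199.8 CPM in IFE library 2, where the others had 157 to 172 CPM.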

How the results depend on the processing

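The pair block changed little: with no replicate block, 4 S phase members were lower, 5 G2/M members were higher (Cenpe lost its call, adjusted p = 0.0525) and 4689 genes differed. Leaving out each pair in turn gave 3 to 4 S phase members lower, 3 to 12 G2/M members higher and 3953 to 5229 genes in all. Against 6 G2/M members higher, DESeq2 gave 10, pairs 5 to 7 alone gave 0 and a threshold of 0.01 gave 2. Against 4 S phase members lower, pairs 5 to 7 alone gave 2, where 1105 of all genes were lower, beside 2402 in the main fit. Of all genes, 2331 differed in pairs 5 to 7 alone and 3087 in pairs 1 to 4 alone, where fewer samples were compared. In the 100 bases before the start, E2F matches stood in 6.25% of S phase and 0 G2/M promoters and CHR matches in 33.3% of G2/M promoters, a shorter window. The cause of the other shifts was not tested. Medians kept their sign in every alternative run, and no called member reversed. Of 18 alternatives, Cenpe lost its call in 10, Cdc6 in 8, Aurka in 5, Kif23 in 3, Kif20a in 2 and Kif2c, Nusap1, Prim1 and Ccne1 in 1 each; Ccne2 kept it in each.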
